A study of Mus musculus with 5 samples.

Results

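The genes described here are 8 genes of the LIF and STAT3 pathway, Lif, Lifr, Il6st, Jak1, Jak2, Stat3, Socs3 and Pim1, and the binding of KLF5 around them in mouse embryonic stem (ES) cells. They were taken from a list of the pathway, and each was given every V5-KLF5 peak that shared at least 1 base with the gene or with the 50 kb beyond either end (mm10 build). The 8 genes of 21887 protein-coding genes held 75 of the 45378 V5-KLF5 peaks, and no peak was counted for more than 1 of them. KLF5 is a zinc-finger transcription factor, and here it was overexpressed with a V5 epitope tag, a short peptide that an anti-V5 antibody recognises, so that its sites could be read by chromatin immunoprecipitation and sequencing (ChIP-seq). The cells that carried V5-KLF5 were wild-type ES cells derived from C57B6/J mice, and the control cells were wild-type ES-D3 cells, an established mouse ES line, without the tag. Of the 5 libraries, 3 came from the V5-KLF5 cells (anti-V5 precipitate, normal mouse IgG precipitate and input) and 2 from ES-D3 cells (anti-V5 precipitate and input). All cells were cross-linked with formaldehyde in the same way. The promoter that drove V5-KLF5, the level of the tagged protein relative to the cells' own KLF5, and the number of clones are not given in the sources used here.

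LIF (leukaemia inhibitory factor) is the cytokine that keeps mouse ES cells in the naive pluripotent state in culture. It binds a receptor made of LIFR and gp130, the product of Il6st, and the receptor-bound kinases of the JAK family then phosphorylate STAT3, which enters the nucleus and switches on target genes. Socs3 is a target that blocks the receptor and so limits the signal, and Pim1, a serine/threonine kinase gene, is a target in many cell types. KLF5 belongs to the same network of naive pluripotency factors that this pathway sustains.

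The 3 immunoprecipitates were of similar depth, with 21.8 to 24.5 M (mega) tags left after duplicates were removed, and the inputs kept 22.1 and 30.2 M tags. Each group was 1 library, so no value below has a spread between cultures and no test between groups was possible. Strength is given as the pileup, which is the number of extended tags over a peak's summit, and as the fold enrichment of that pileup over the input background. Both are the authors' values for each peak. Intervals are exact 95% Poisson intervals of the pileup, carried over to the fold enrichment with the input background held fixed, and they cover counting error only. A summit bound in more cells and one bound for longer in each cell cannot be told apart. Peak lists hold no expression values, so the cell type could not be checked against its markers, and nothing is known here of the RNA of these genes.

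All 8 genes had V5-KLF5 peaks. In V5-KLF5 cells the anti-V5 precipitate had 16 peaks at Socs3, 14 at Pim1, 13 at Lif, 10 at Il6st, 9 at Lifr, 6 at Stat3, 5 at Jak2 and 2 at Jak1. The IgG precipitate of the same cells and the anti-V5 precipitate of untagged cells had 0 peaks at every one of the 8 genes. These control lists held 3 and 0 peaks in the whole genome, so their lack of peaks here is not particular to the pathway, and control signal too weak to be called was not analysed here. The run name in the header of the untagged list names the ES line JM8.N4 where its label gives ES-D3, so the line of that control is uncertain. A peak within this reach was common in the genome: by the same rule 81.1% of protein-coding genes had at least 1. The count of 8 of 8 is therefore near what most genes show, and the genes differed more in how many peaks they had and how strong these were.

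**Figure D1:**
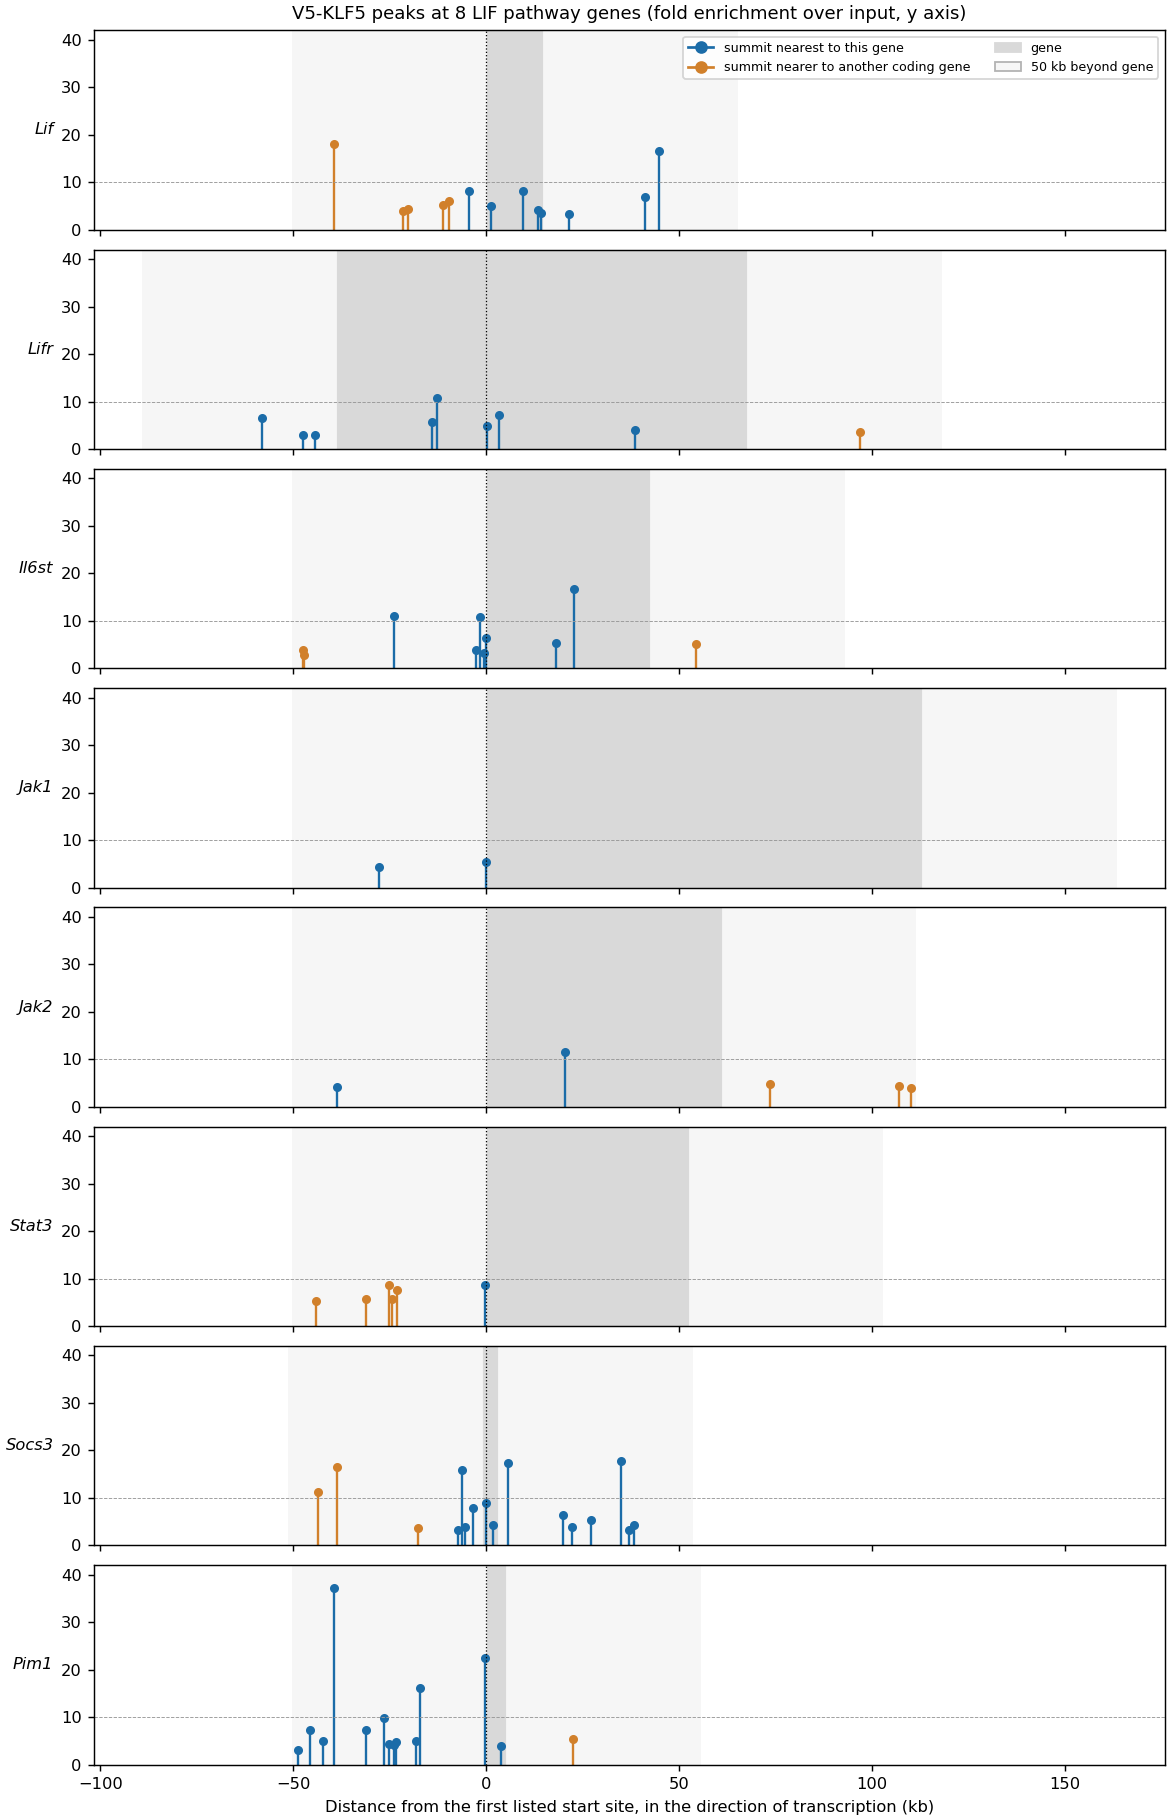
V5-KLF5 peaks at each of the 8 genes, with the distance of the summit from the first listed start site on the x axis (kb, in the direction of transcription) and the fold enrichment over input on the y axis. Dark grey marks the gene and light grey the 50 kb beyond its ends; blue summits lie nearest to the gene and orange summits nearer to another protein-coding gene, and the dashed line is a fold enrichment of 10. Peaks line the 50 kb upstream of Pim1, lie on both sides of Socs3 and Lif, and leave the body of Jak1 empty beyond its start.

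Socs3, Pim1 and Lif lay in peak-dense sequence. Over all protein-coding genes the median was 4 peaks by the same rule, with quartiles of 1 and 8. The 16 peaks of Socs3 were equalled or exceeded at 4.85% of protein-coding genes, the 14 of Pim1 at 7.92% and the 13 of Lif at 9.78%. These 3 genes are short, at 4.26, 5.33 and 14.9 kb, so their searched regions were among the smallest, and their peak densities were 153, 133 and 113 per Mb against a median of 28.3 per Mb over protein-coding genes. Il6st had 70.0, Lifr 43.5, Stat3 39.3 and Jak2 31.0 peaks per Mb. Jak1 was the only 1 of the 8 below that median, with 9.38 per Mb over a region of 213 kb, and 72.8% of protein-coding genes were denser. The region of Socs3 held 1 other protein-coding gene, that of Pim1 1 and that of Lif 3, against a median of 3 over protein-coding genes. These gene counts were not scaled to the size of the region, and their part in the peak density was not tested.

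**Figure D2:**
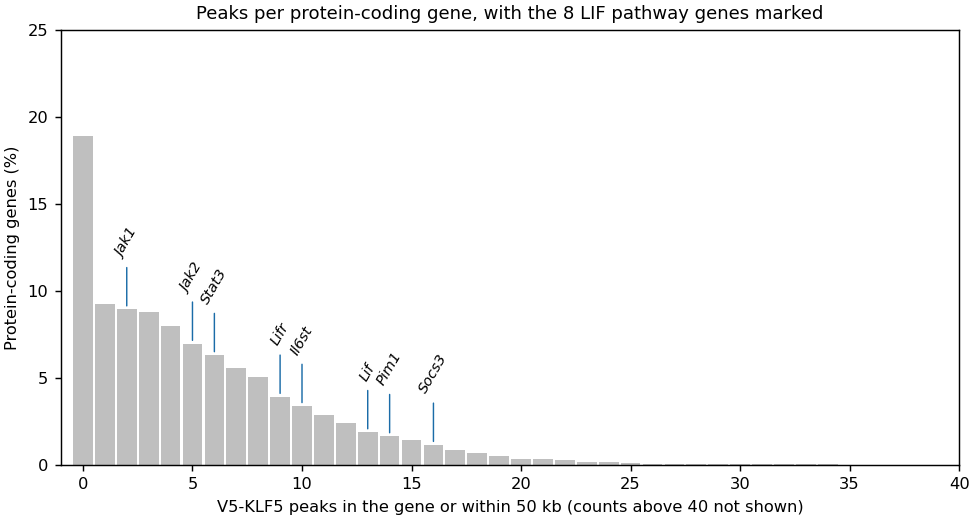
Share of protein-coding genes (y axis, %) by the number of peaks counted under the 50 kb rule (x axis), with the 8 pathway genes marked. Jak1 stands at 2 peaks, left of the median of 4, and Lif, Pim1 and Socs3 stand at 13, 14 and 16.

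Peaks at these genes were about as strong as peaks elsewhere, with a larger share of strong ones. Their fold enrichment ran from 2.83 to 37.2 with a median of 5.37, against a median of 5.18 over all V5-KLF5 peaks. Of the 75 peaks, 15 (20.0%) had a fold enrichment of at least 10, as did 13.0% of all V5-KLF5 peaks. They lay at 6 of the 8 genes, 5 at Socs3, 3 each at Pim1 and Il6st, 2 at Lif and 1 each at Lifr and Jak2. By the same rule 41.0% of protein-coding genes had a peak of that strength within reach. The input background was above 6.13, its 95th percentile on assembled chromosomes, under 5 of the 75 peaks. Its most common value, 3.1, stood under 10 of the 75 peaks (13.3%) and under 37.9% of all V5-KLF5 peaks. Fold enrichments at those peaks are ratios to that shared value.

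Under the 50 kb rule, the strongest peak of each gene put Pim1 apart from the rest. Its strongest peak had a fold enrichment of 37.2 (interval 32.1 to 42.8), and the next gene was Lif with 18.1 (14.8 to 21.9), so these intervals did not overlap. Socs3 followed with 17.7 (14.4 to 21.5) and Il6st with 16.7 (13.2 to 20.8). Jak2 had 11.5 (8.55 to 15.2), Lifr 10.7 (8.36 to 13.4), Stat3 8.76 (6.27 to 11.9) and Jak1 5.37 (3.42 to 8.08). From Lif down to Jak1, each gene's interval overlapped that of the next, so the order of neighbours there is within counting error. Each value is the highest of a gene's peaks, and the intervals do not allow for that choice. The separation of Pim1 rested on a summit 39.3 kb upstream. Within 10 kb its strongest peak had 22.5 (18.2 to 27.4). That interval overlapped those of Socs3, with 17.4 (13.9 to 21.7), and Il6st, with 16.7. Only 0.562% of protein-coding genes had a stronger peak within reach than Pim1, while 71.4% had a stronger one than Jak1. The median strongest peak of the 8 genes was 14.1, against 10.0 over the protein-coding genes that had a peak. A gene with more peaks has more from which its strongest is taken. The median count was 9.5 peaks at the 8 genes and 4 over all protein-coding genes, and this difference was not adjusted for.

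**Figure D3:**
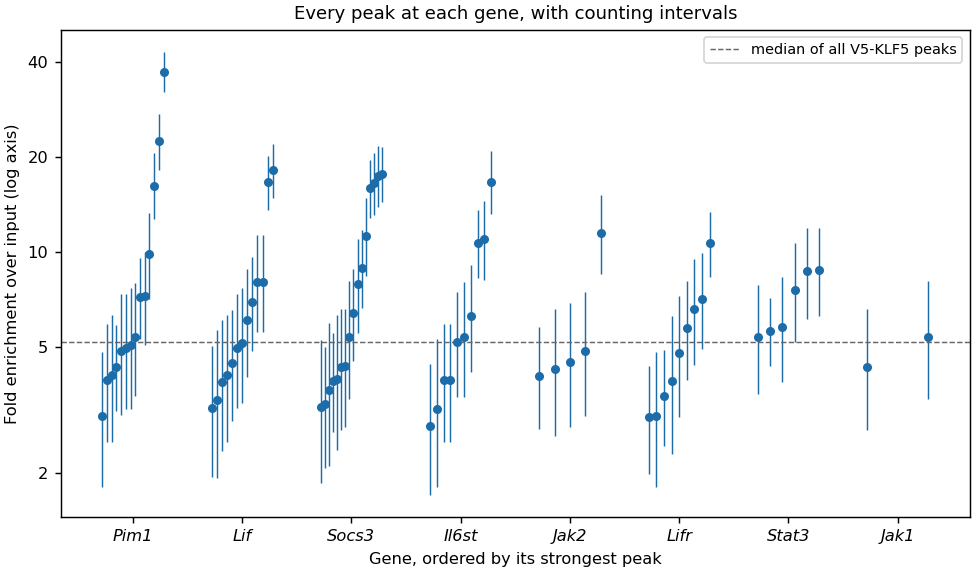
Fold enrichment over input (y axis, log scale) of all 75 peaks, by gene, with genes ordered by their strongest peak; points are peaks, bars are 95% Poisson counting intervals, and the dashed line is the median of all V5-KLF5 peaks (5.18). The strongest Pim1 peak stands clear of every other peak, and most genes hold several peaks near the dashed line beside a few strong ones.

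Most peaks lay away from the start sites. Of the 75 summits, 43 (57.3%) were upstream of the gene, 16 (21.3%) inside it and 16 (21.3%) downstream. Over protein-coding genes with a known strand, 39.4% were upstream, 22.0% inside and 38.6% downstream. Stat3 and Pim1 carried much of the upstream share, with 6 of 6 and 12 of 14 summits upstream. Only 7 of the 75 summits were within 1 kb of a start site of the gene itself, at Il6st, Lifr, Jak1, Stat3, Socs3 and Pim1. Of the 15 peaks that reached a fold enrichment of 10, just 1, at Pim1, was that close to a start site of its own gene. With the start sites of all protein-coding genes counted, 11 of 75 (14.7%) were within 1 kb of one, against 22.3% of all V5-KLF5 peaks. Among the peaks that reached a fold enrichment of 10, these were 2 of 15 here and 25.2% over the genome.

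Promoter sequence was examined for the 10 start sites that RefSeq lists for the 8 genes (GRCm38.p6, the assembly that mm10 names), from 250 bases before to 50 bases after each. A V5-KLF5 peak overlapped this stretch at 5 of the 8 genes, Il6st, Jak1, Stat3, Socs3 and Pim1, and by the same rule at 47.1% of the 17492 protein-coding genes with a listed start site. It did not at Lif, Lifr or Jak2, where the summits nearest to the first listed start lay 1294, 225 and 20448 bases after it. The Lifr peak, at 7129629 to 7130002, began just beyond the 50 bases after the start at 7129572. The 250 bases before the start were searched on both strands for 2 sets of letters. The KLF letters were CCNCNCCC, an 8-base form of the GC and CACCC boxes that KLF and SP factors bind. The STAT letters were TTCNNNGAA, the palindrome that STAT dimers bind. Boxes that differ from these letters at a fixed base were not counted. Matches to the KLF letters may overlap each other and were counted separately. The KLF letters were in 52.9% of 21263 such promoters and the STAT letters in 6.58%. In promoters under a V5-KLF5 peak the KLF letters were in 73.0%, and in the others in 36.8%, but the promoters under a peak were also richer in G and C (median 62.0% against 49.2%), whose part in this was not tested. The following 250-base stretches, read 5′ to 3′ on the gene's strand with matches in capitals, show the range among the 8 genes, from many KLF matches under a strong peak to matches without a peak and a peak without a match.
Pim1, chr17:29490535-29490784 (plus strand): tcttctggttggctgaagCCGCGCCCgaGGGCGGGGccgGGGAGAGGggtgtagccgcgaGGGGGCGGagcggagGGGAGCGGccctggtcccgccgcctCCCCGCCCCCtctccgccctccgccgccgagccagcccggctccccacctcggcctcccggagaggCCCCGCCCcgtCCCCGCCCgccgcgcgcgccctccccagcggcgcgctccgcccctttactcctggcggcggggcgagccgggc
Socs3, chr11:117969367-117969616 (minus strand): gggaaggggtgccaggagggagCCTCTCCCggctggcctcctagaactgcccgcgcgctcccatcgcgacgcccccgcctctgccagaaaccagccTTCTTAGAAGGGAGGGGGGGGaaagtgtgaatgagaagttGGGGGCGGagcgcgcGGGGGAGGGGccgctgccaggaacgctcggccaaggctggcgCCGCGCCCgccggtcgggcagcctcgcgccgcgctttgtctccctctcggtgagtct
Stat3, chr11:100939541-100939790 (minus strand): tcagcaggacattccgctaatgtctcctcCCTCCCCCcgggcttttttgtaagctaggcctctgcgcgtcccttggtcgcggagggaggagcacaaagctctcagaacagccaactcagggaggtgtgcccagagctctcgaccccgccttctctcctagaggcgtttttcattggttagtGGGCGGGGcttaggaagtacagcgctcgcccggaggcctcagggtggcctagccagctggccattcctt
Jak1, chr4:101265224-101265473 (minus strand): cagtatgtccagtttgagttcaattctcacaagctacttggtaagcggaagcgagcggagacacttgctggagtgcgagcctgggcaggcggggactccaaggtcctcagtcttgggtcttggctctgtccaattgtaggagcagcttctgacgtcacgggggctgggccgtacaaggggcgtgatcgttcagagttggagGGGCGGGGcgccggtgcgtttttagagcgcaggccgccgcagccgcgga
Il6st, chr13:112463820-112464069 (plus strand): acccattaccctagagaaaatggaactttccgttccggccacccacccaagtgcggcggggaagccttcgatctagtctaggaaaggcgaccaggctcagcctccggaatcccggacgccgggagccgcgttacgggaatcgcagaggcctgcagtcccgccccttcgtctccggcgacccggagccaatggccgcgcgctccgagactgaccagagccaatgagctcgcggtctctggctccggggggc
Jak2, chr19:29251553-29251802 (plus strand): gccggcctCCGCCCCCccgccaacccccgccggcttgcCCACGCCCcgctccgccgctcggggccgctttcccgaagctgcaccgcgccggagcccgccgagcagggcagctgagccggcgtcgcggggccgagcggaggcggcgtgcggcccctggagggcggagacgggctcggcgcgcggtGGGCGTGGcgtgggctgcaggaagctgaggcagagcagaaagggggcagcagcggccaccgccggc

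The Pim1 promoter had 9 KLF matches, a number that 1.44% of promoters reached, and the peak over it had a fold enrichment of 22.5. The summit of that peak, 341 bases before the start, lay outside the 250 bases searched. Across the genome the share of promoters under a peak did not keep rising with the number of matches. It was 25.5% with 0 matches, 71.4% with 4 and 55.6% with at least 9. Socs3 had 7 KLF matches, and it was the only 1 of the 10 promoters with the STAT letters, at 154 to 146 bases before the start (TTCTTAGAA). Its promoter peak had 8.93. Stat3 had 2 KLF matches under a peak of 8.76, and Jak1 had 1, the GC box GGGCGGGG at 49 to 42 bases before the start, under a peak of 5.37. In the Il6st promoter neither motif was found, although a summit with a fold enrichment of 6.28 lay 27 bases after the start. Across the genome, 27.0% of promoters under a V5-KLF5 peak likewise had no KLF match in these 250 bases. The Jak2 promoter had 3 KLF matches and 80.8% G and C, yet the nearest summit to its start was 20448 bases away, and 32.3% of the 4301 promoters with at least 3 matches had no peak over them. A match of letters is not a bound site, and the strong peaks away from the promoters could not be searched because no genome sequence was used here.

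Lif, the ligand gene (chromosome 11, 4257568 to 4272514), had 13 peaks, and the strong ones lay at the edges of the region. The strongest, at 4217807 to 4218749, had a pileup of 104 and a fold enrichment of 18.1, but its summit was 39.5 kb upstream of Lif and 157 bases before a start site of Castor1, which encodes an arginine sensor of the mTORC1 pathway. The other strong peak, at 4302081 to 4302908 inside the lncRNA gene Gm11958, had a pileup of 105 and a fold enrichment of 16.6, with its summit 29.9 kb downstream of Lif. Near the gene the binding was modest. A summit 4.51 kb upstream had a fold enrichment of 8.05, as had 1 inside the gene 9.48 kb from the start. The nearest to the start, 1294 bases into the gene, had 4.97 (3.22 to 7.35). Both Lif and its neighbour Osm, which encodes oncostatin M, another cytokine that signals through gp130, lie in this region, and 4 summits with fold enrichments of 3.88 to 6.08 were nearer to Osm. In all, 8 of the 13 summits had Lif as their nearest protein-coding gene.

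The receptor genes differed in where their peaks lay. Il6st (chromosome 13, 112464070 to 112506860) had 10 peaks, most of them at its start or upstream, and its strongest inside the gene body. That strongest peak, at 112486357 to 112487126, was 22.8 kb into the gene with a pileup of 77 and a fold enrichment of 16.7. A cluster of 4 summits sat at the start, with fold enrichments of 3.93, 10.7, 3.20 and 6.28 at 2592, 1445 and 557 bases before it and 27 bases after it. A further peak of 11.0 lay 24.0 kb upstream, at 112439853 to 112441024. The summit 11560 bases downstream, with 5.18, was nearer to Il31ra, which encodes a receptor of the same family. Summits 47.5 and 47.2 kb upstream, with 3.93 and 2.83, were nearer to Ankrd55. In all, 7 of the 10 summits had Il6st as their nearest protein-coding gene.

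Lifr (chromosome 15, 7090610 to 7197489) had 9 peaks, 5 of them with the summit inside the gene. RefSeq lists start sites at 7129572 and 7140542, well inside the annotated gene, so part of the gene lies upstream of both. The strongest peak, at 7116531 to 7117158, had a pileup of 71 and a fold enrichment of 10.7 and lay 12646 bases before the first of them. Beside it, at 7115300 to 7115885, was a peak of 5.73. Summits 225 bases and 3238 bases after the first start site had 4.78 and 7.11. The 3 summits upstream of the gene had 6.59, 3.00 and 3.04. The peak of 3.00 and the downstream peak of 3.50, which lay inside Egflam, stood on input backgrounds of 7.67 and 8.43, above the 95th percentile named above.

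The JAK genes, which encode the receptor-bound kinases, had the fewest peaks. Jak1 (chromosome 4, 101151974 to 101265282, minus strand) had 2 in a region of 213 kb. The peak at 101264932 to 101265489 covered the start, with its summit 133 bases before it, a pileup of 21 (13.0 to 32.1) and a fold enrichment of 5.37. The other, 27.6 kb upstream in the lncRNA gene Gm12796, had a pileup of 20 and 4.34. No summit lay in the 113 kb body of the gene. The next peak beyond the region was 82.1 kb from the gene.

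Jak2 (chromosome 19, 29251803 to 29313095) showed the opposite layout, with no peak at its start and 1 strong peak inside. This peak, at 29272033 to 29272483, lay 20.4 kb past the start with a pileup of 48 (35.4 to 63.6) and a fold enrichment of 11.5. A summit 38.7 kb upstream had 4.27. The 3 summits downstream, with fold enrichments of 4.07 to 4.88, had Insl6 or Plgrkt as their nearest protein-coding gene, and 1 of them lay 143 bases before a start site of Plgrkt. The strongest peaks of the 2 JAK genes did not overlap in their counting intervals (8.55 to 15.2 and 3.42 to 8.08). These were the highest of 5 peaks at Jak2 and of 2 at Jak1, and the intervals do not allow for that choice.

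Stat3 (chromosome 11, 100886806 to 100939594, minus strand) is the transcription factor gene of the pathway. It had 1 peak at its promoter and 5 farther upstream that were nearer to the neighbouring gene. The promoter peak, at 100939412 to 100939951, had its summit 234 bases before the start, with a pileup of 38 and a fold enrichment of 8.76. This is the promoter printed above with 2 KLF matches, and the lncRNA gene Gm46295 spans it. No summit lay inside Stat3 or downstream of it. The 5 others, 22.9 to 43.9 kb upstream with fold enrichments of 5.38 to 8.69, were all nearest to Cavin1, which encodes a coat protein of caveolae. Among them was a peak of 1962 bp with its summit 79 bases before the start of Cavin1. It had the highest pileup of the region, 65, but stood on an input background of 10.7, the highest under any of the 75 peaks, and its fold enrichment was 5.62.

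Socs3, the feedback inhibitor gene (chromosome 11, 117966079 to 117970336, minus strand), had the most peaks, 16, and the most strong ones, 5. Peaks clustered close to the gene: 7 of the 16 summits lay between 7269 bases before and 5774 bases after the start. A peak of 1389 bp, at 117968816 to 117970204, covered the promoter printed above with its 7 KLF matches and the STAT letters, and had its summit 94 bases after the start with a pileup of 49 and a fold enrichment of 8.93. Stronger peaks flanked the gene. The peak at 117975038 to 117976267, 6.32 kb before the start, had a pileup of 88 and a fold enrichment of 15.9. The peak at 117963275 to 117964101, 2487 bases beyond the 3′ end, had a pileup of 80 and 17.4. The strongest, at 117933944 to 117934849 and 31.7 kb downstream, had a pileup of 98 and 17.7, and its interval of 14.4 to 21.5 overlapped those of the other 4 strong peaks. The remaining strong peaks, with 16.6 and 11.2, lay 37.7 and 42.5 kb upstream inside Pgs1, a phospholipid synthesis gene. In all, 13 of the 16 summits had Socs3 as their nearest protein-coding gene.

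Pim1, the target kinase gene (chromosome 17, 29490785 to 29496111), had 14 peaks, 12 of them strung along the 48.7 kb upstream. The strongest peak of all 8 genes lay there, at 29450549 to 29452256, with its summit 39.3 kb upstream, a pileup of 193 (167 to 222) and a fold enrichment of 37.2. It ranked 46 of the 45378 V5-KLF5 peaks. The peak over the promoter, at 29489594 to 29493102, was 3509 bp long, which only 5 V5-KLF5 peaks, itself included, reached. It covered both listed start sites, 29490785 and 29493085, and its summit, 341 bases before the first, had a pileup of 96 and a fold enrichment of 22.5 (18.2 to 27.4). This interval did not overlap that of the upstream peak. Another strong peak, at 29473384 to 29473939, was 17.1 kb upstream with 16.2, and the peak 26.6 kb upstream had 9.85. The other 8 upstream summits had 3.04 to 7.24. All 12 upstream summits lay within the lncRNA genes Gm36199 or Gm26885. Of the 14 summits, 13 had Pim1 as their nearest protein-coding gene, and the other was nearer to Tmem217.

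The limit of 50 kb fell close to peaks at Il6st and Pim1. For Il6st the outermost peak inside the limit was 47.4 kb away with a fold enrichment of 3.93, while the next outside was 50.7 kb away with 20.2, stronger than any inside. For Pim1 these were 48.5 kb with 3.04 and 50.3 kb with 6.83. For the other 6 genes the next peak outside was 53.5 to 187 kb away, with fold enrichments of 4.39 to 6.25. The strongest peak had the gene itself as its nearest protein-coding gene at 7 of the 8 genes, Lif being the exception, and at 40.7% of the 17753 protein-coding genes with a peak.

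Of 50 other genes of the pathway, 49 had a V5-KLF5 peak by the same rule and 30 had one with a fold enrichment of at least 10, where 81.1% and 41.0% of protein-coding genes did. The median strongest peak was 11.9. At 24 of the 49 genes the strongest peak had the gene itself as its nearest protein-coding gene. Among 8 genes that STAT3 is known to regulate in ES cells, all had a peak, 7 had one of at least 10, and the median strongest peak was 17.5. Their median count was 14 peaks, against 8 over the 50 genes. These 8 genes, like the other lists, were chosen with earlier results of these data known, so their values are description only. Gbx2, a homeobox gene, had 22.9, at a peak nearer to Agap1, and Bcl3, which encodes a coactivator of NF-kappaB, had 22.8 and 27 peaks. The PIM family genes Pim3 and Pim2 had 17.0 and 12.0, the latter at a peak nearer to Eras. In the JAK family, Tyk2 had 16.1 and Jak3 had 10.2, each at a peak nearer to another gene.

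The cytokines that share gp130 all had peaks, 7 of 7, with a median strongest peak of 11.9. The highest were Osm with 18.1, at the Castor1 peak that also counts for Lif, and Ctf1, the cardiotrophin gene, with 16.3 at a peak nearer to Bcl7c. Of the receptors, 5 of 5 had a peak, with a median of 9.72, led by Il27ra with 23.3 at a peak nearer to Palm3 and by Il6ra with 13.2 inside the gene. The STAT family held the only gene without a peak, Stat5a, which lies next to Stat3. Of the 6 genes 5 had a peak, led by Stat6 with 23.0 and Stat5b with 10.1, both nearer to another gene. Inhibitors and phosphatases had peaks at 14 of 14 genes with a median of 10.7, led by Pias4 with 43.2 and Pias3 with 18.2, at peaks nearer to Zbtb7a and Ankrd35. The adaptor genes had peaks at 6 of 6 with a median of 10.3. The highest were Pik3ca with 12.4, at a peak nearer to Zfp639, and Gab1 and Grb2 with 11.0 each.

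**Figure D4:**
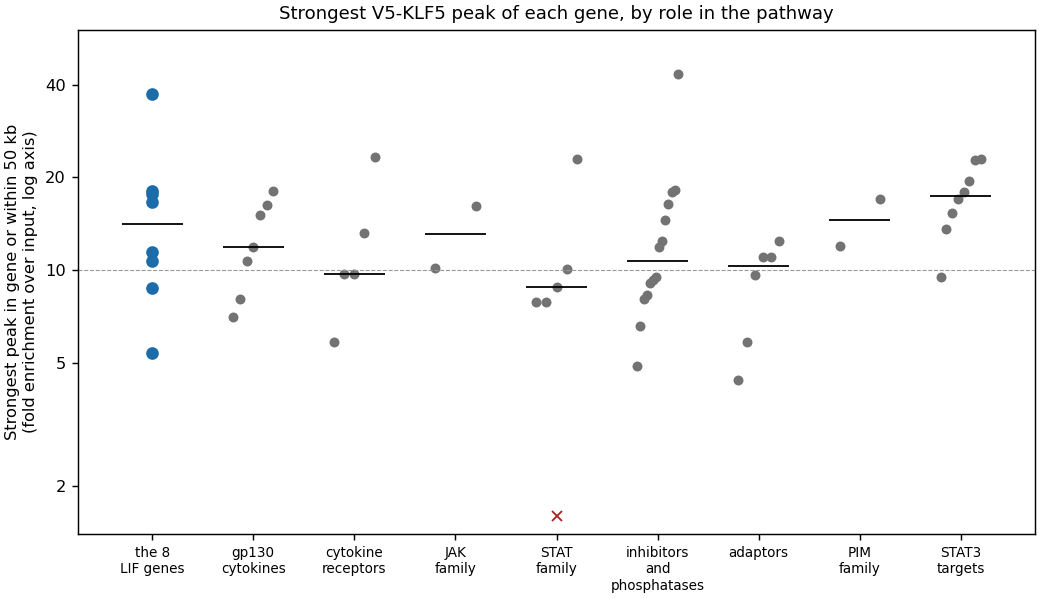
Fold enrichment (y axis, log scale) of the strongest peak of each gene under the 50 kb rule, for the 8 genes in blue, in a column of their own, and the other pathway genes in grey, grouped by role; black lines are medians, the cross is Stat5a, which had no peak, and the dashed line is a fold enrichment of 10. In every column but those of the other JAK and PIM genes, genes lie on both sides of the dashed line, and the STAT3 targets have the highest median, 17.5. The lists were chosen with earlier results of these data known.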

How the data were processed

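Per the file headers, the authors called peaks with MACS2 2.1.0.20140616 on single, unpooled libraries each with its own cells' input. They extended 51 bp tags to 250 bp, kept 1 tag per position and set a q-value limit of 0.05. Build mm10 and Bowtie 0.12.8 are named in the submitters' processing notes, and how multiply mapped reads were handled was not given in the sources used here. The deposited pileup is a signal in extended tags, the deposited fold enrichment is a ratio of (pileup + 1) to (input background + 1), and the deposited significance is a −log10 p-value and −log10 q-value. The input background was recovered from both.

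Genes, start sites and promoter sequences came from RefSeq tables of GRCm38.p6, in which all 58 symbols used were found. Peaks were assigned by overlap of at least 1 base with Python 3.11.15, pandas 2.3.3 and scipy 1.17.1, and the overlap counts were tested on simulated data. Location classes and nearest genes use the summit. The named genes are the 8 members, the 2 strongest genes of each other list (ties included), genes without a peak, and neighbours nearer to a summit. Alternatives changed the window, the use of the summit, the q-value and fold limits, the nearest-gene rule and the ranking by pileup. The genes and lists were chosen with earlier results of these data known.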

Additional observations from a re-analysis of the deposited data

How the results depend on the processing

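The total of 75 peaks depended on the window and on peak strength. It was 32 within 10 kb, 19 for peaks that touch the gene, 37 at a −log10 q of at least 10 and 15 at a fold enrichment of at least 10. It stayed within 1.5 times of 75 within 100 kb (101), with summits in place of peaks (75) and with nearest-gene peaks only (54). At a fold enrichment of at least 10, the share of protein-coding genes with a peak was 41.0% and the count of other pathway genes with a peak was 30. All 8 genes kept a peak under every alternative but the −log10 q limit, which left 7 (Jak1 lost both), and the fold limit, which left 6 (Jak1 and Stat3 had none). Counts at Pim1 and Stat3 fell most in proportion within 10 kb, to 2 and 1. The strongest peak changed within 10 kb at Lif (8.05), Socs3 (17.4) and Pim1 (22.5), for peaks that touch the gene at Lif (8.05), Socs3 (8.93) and Pim1 (22.5), within 100 kb at Il6st (20.2), with nearest-gene peaks only at Lif (16.6), and with ranking by pileup at Lif (16.6) and Stat3 (5.62). The lowest pileup, 13 tags, has an interval of 6.92 to 22.2, so weak peaks are hardly ranked at this depth. No paired analysis was possible because each group had 1 library.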
